A study of Mus musculus with 8 samples.

Results

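The 8 genes described here are the liver cytochromes P450 Cyp3a11, Cyp3a13, Cyp3a25, Cyp2b9, Cyp2b10 and Cyp2b13, and the nuclear receptors Nr1i2 (PXR, the pregnane X receptor) and Nr1i3 (CAR, the constitutive androstane receptor). They were picked by name from 22180 measured genes, and each was read from the only transcript cluster (a set of probes along a gene) whose annotation named that gene alone. The values came from livers of male C57BL/6J offspring that were removed at 24 weeks of age, 4 HFD PN and 4 Ctrl PN, with 1 Affymetrix array per liver. Dams of HFD PN offspring were moved to a lard-based 60% high-fat diet at parturition and kept on it through lactation, and dams of Ctrl PN offspring stayed on normal diet. Both groups were weaned onto normal diet, carried no introduced allele and were given no drug, so each gene was read months after the exposure had ended and without an added inducer of CAR or PXR. The comparison asks whether lactational high-fat diet left a difference in this drug-handling system of the adult liver. No source used here gives the litters, so p-values measure only the spread between these livers.

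PXR and CAR are receptors of hepatocytes that sense foreign compounds and some bile acids, steroids and bilirubin. On activation they move to or act in the nucleus, pair with the retinoid X receptor RXR and switch on target genes through paired half-sites of the AGGTCA and AGTTCA type. Enzymes of the Cyp3a group are classical targets of PXR, and Cyp2b10 is the classical target of CAR in mouse liver. The enzymes add oxygen to drugs and steroids, with electrons passed on by the reductase Por and heme supplied by the Alas1 pathway. In mice Cyp2b9, Cyp2b13 and several Cyp3a genes are known to be higher in female than in male liver.

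The promoters of the enzymes are shown because PXR and CAR act through such half-sites and because they show how alike the family members are. They are the RefSeq sequences of build GRCm38.p6, 5′ to 3′ on the gene's strand, cut so that they end before the outermost annotated start of the gene. Capitals mark each AGGTCA or AGTTCA, on either strand. The first is from chr5:145879855-145880104 (minus strand), the second from chr5:146009645-146009868 (minus strand) and the third from chr7:25897408-25897657 (plus strand).
Cyp3a11: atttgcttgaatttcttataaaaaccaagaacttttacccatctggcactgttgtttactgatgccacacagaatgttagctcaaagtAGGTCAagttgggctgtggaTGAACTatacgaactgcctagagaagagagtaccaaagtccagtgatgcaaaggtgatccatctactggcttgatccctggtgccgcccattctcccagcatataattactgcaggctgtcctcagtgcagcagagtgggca
Cyp3a25: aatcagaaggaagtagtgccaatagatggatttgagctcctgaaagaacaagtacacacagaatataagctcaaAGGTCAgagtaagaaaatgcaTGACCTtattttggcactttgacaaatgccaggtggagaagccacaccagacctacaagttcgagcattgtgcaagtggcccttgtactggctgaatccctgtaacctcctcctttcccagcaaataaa
Cyp2b10: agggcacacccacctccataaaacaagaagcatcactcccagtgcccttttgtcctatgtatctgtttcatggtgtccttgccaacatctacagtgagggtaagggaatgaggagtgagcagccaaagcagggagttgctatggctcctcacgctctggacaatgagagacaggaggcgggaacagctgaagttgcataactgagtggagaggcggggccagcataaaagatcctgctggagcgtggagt
The search covered 250 bases per gene, not all of them before the outermost annotated start. The bases before it numbered 224 for Cyp3a25, 225 for Nr1i2, 214 for Nr1i3, 191 for Cyp2b9 and 143 for Cyp2b13. Cyp3a25 had 2 windows, and the first was used. In this window, Cyp3a11 and Cyp3a25 each held 2 half-sites that faced each other, 14 bases apart in Cyp3a11 and 15 bases apart in Cyp3a25. Of 27025 mouse promoters of the same length, 24.1% held at least 1 half-site and 3.64% held 2 or more. Cyp2b9 and Cyp2b13 each held 1 AGGTCA, at base 113 from the 5′ end of the stretches shown further below, where it is left in lower case. Cyp2b10, Nr1i2 and Nr1i3 had none in this window, which says only that these letters were not there. The window given for Cyp3a13 lies inside the annotated span of the gene, so nothing is read from it. Searched on both strands, none of the other windows held the half-sites as direct repeats spaced by 3 or 4 bases or as everted repeats spaced by 6 or 8, and 0.0555% of all promoters did. A match is a description of letters and not a measured site.

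Cyp2b9 and Cyp2b13 are shown as a pair because their promoters are close to identical. The stretches shown lie before the annotated start, so they do not tell how far array probes can separate the transcripts. The stretches are chr7:26173159-26173301 for Cyp2b9 and chr7:26061245-26061387 for Cyp2b13, both on the plus strand, and here capitals mark the bases that differ.
Cyp2b9: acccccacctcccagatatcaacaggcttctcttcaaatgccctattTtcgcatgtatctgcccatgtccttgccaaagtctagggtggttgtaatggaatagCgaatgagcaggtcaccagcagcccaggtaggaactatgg
Cyp2b13: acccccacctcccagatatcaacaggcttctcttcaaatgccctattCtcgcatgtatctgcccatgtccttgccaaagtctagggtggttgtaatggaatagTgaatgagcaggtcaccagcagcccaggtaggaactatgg
Over 300 bases around the start, the windows differed at 2 positions, T48C and C104T from Cyp2b9 to Cyp2b13, counted from 1 at the 5′ end of the sequences shown. The same window of Cyp2b10 was 71.7% identical to that of Cyp2b9 after alignment. The start windows of Cyp3a11 and Cyp3a25 were 52.9% identical. Probe sequences were not used here, so how far probes of 1 family member also bind another was not tested.

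Each array was checked against liver markers before the genes were compared. Of 17 hepatocyte genes, 16 were measured and all 16 lay above the background guide, with mean log2 levels of 9.41 to 9.84 per liver. The guide was taken from 1105 olfactory receptor genes, which liver should not express, and their 95th percentile was 1.65 on the log2 scale. The 6 arrays besides HFD PN replicate 1 and Ctrl PN replicate 3 correlated at 0.986 to 0.991 across genes. HFD PN replicate 1 correlated at 0.945 to 0.968 with all others and Ctrl PN replicate 3 at 0.969 to 0.979 with the 6, so results that rest on them are given with and without them. All levels are log2 values of the RMA method, and levels of different genes cannot be ranked as amounts of RNA because their probes differ.

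Across all genes, limma placed 123 of 22180 genes (0.555%) at an unadjusted p under 0.01, 43 higher and 80 lower in HFD PN. None of the 8 genes was among them. After Benjamini-Hochberg adjustment limma called 0 genes (0%), with 251 genes higher and 523 lower at an unadjusted p under 0.05. The groups did not overlap for 626 genes (2.82%), and for all 8 genes described here they overlapped. The median difference of the 8 genes was 0.05, beside -0.02 over all genes. Their limma adjusted p was 0.99988 each.

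Nr1i2 (PXR), on chromosome 16 between 38248349 and 38294849, was the most uneven of the 8 genes. Its log2 level in HFD PN replicates 1 to 4 was 2.33, 5.27, 5.54 and 5.46. Ctrl PN replicates 1 to 4 gave 5.15, 5.01, 3.96 and 4.75. HFD PN replicate 1 therefore stood far below every other liver, Ctrl PN replicate 3 was the next lowest, and the remaining 3 HFD PN livers all lay above every Ctrl PN liver. With all livers the HFD PN mean was 4.65 ± 1.55 (SD, n = 4). The Ctrl PN mean was 4.72 ± 0.53 (SD, n = 4). The difference was -0.06 with a 95% confidence interval of -1.61 to 1.48 (limma, adjusted p = 0.99988). An exact two-sided permutation test gave p = 1.

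**Figure D1:**
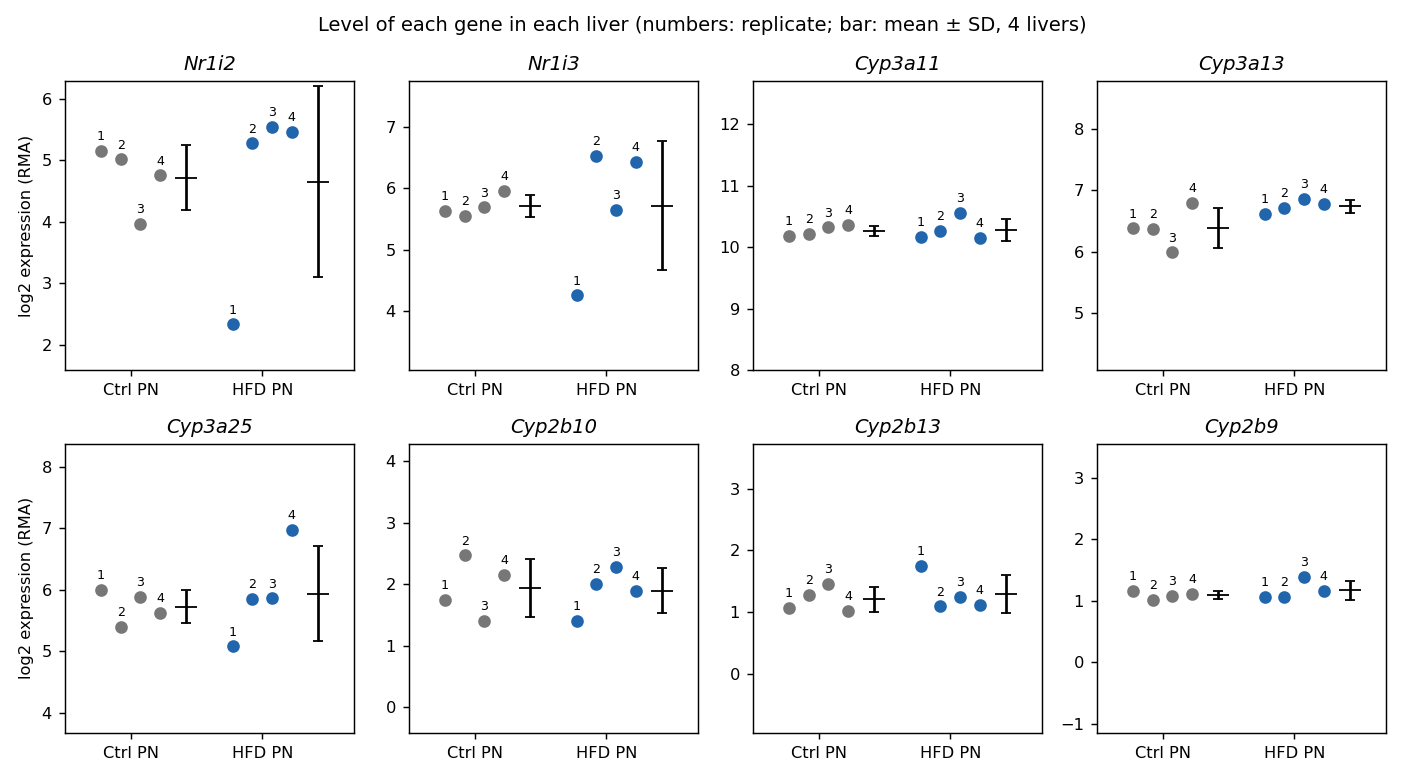
Log2 expression of each gene in each liver, with Ctrl PN in grey, HFD PN in blue, the replicate number above each point and the mean ± SD of 4 livers as a black bar. Every panel spans the same height on the log2 scale, and HFD PN replicate 1 lies at 2.33 for Nr1i2 and 4.26 for Nr1i3, below all other livers.

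The direction of the Nr1i2 difference depended on which livers were used. It was 0.08 without Ctrl PN replicate 1 and 0.03 without Ctrl PN replicate 2, and it moved most without HFD PN replicate 1. Without that liver the difference was 0.71 ± 0.25 (SE), with an unadjusted limma p of 0.0215 and an adjusted p of 0.474. With neither HFD PN replicate 1 nor Ctrl PN replicate 3 it was 0.46 ± 0.13 (SE), with an unadjusted limma p of 0.007 and an adjusted p of 0.43. Down-weighting uneven arrays gave 0.45, with an unadjusted limma p of 0.208. Leaving out HFD PN replicate 1 placed 492 genes (2.22%) at an unadjusted p under 0.01, and leaving out both livers placed 496 (2.24%). The first setting held none of the 8 genes and the second held Nr1i2 alone. Replicates 2 to 4 of HFD PN lay above every Ctrl PN liver for 1298 of all genes (5.85%), and Nr1i2 was the only one of the 8 to do so.

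HFD PN replicate 1 was low for many genes. For Nr1i2 it lay at -3.10 relative to the average of HFD PN replicates 2 to 4, and only 3 of 22180 genes had a lower gap. For 4452 genes with a mean level of 3 to 6, the median gap of this liver was -0.75. Ctrl PN replicate 3 had a gap of -1.01 for Nr1i2 and a median gap of -0.35 over those genes.

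**Figure D2:**
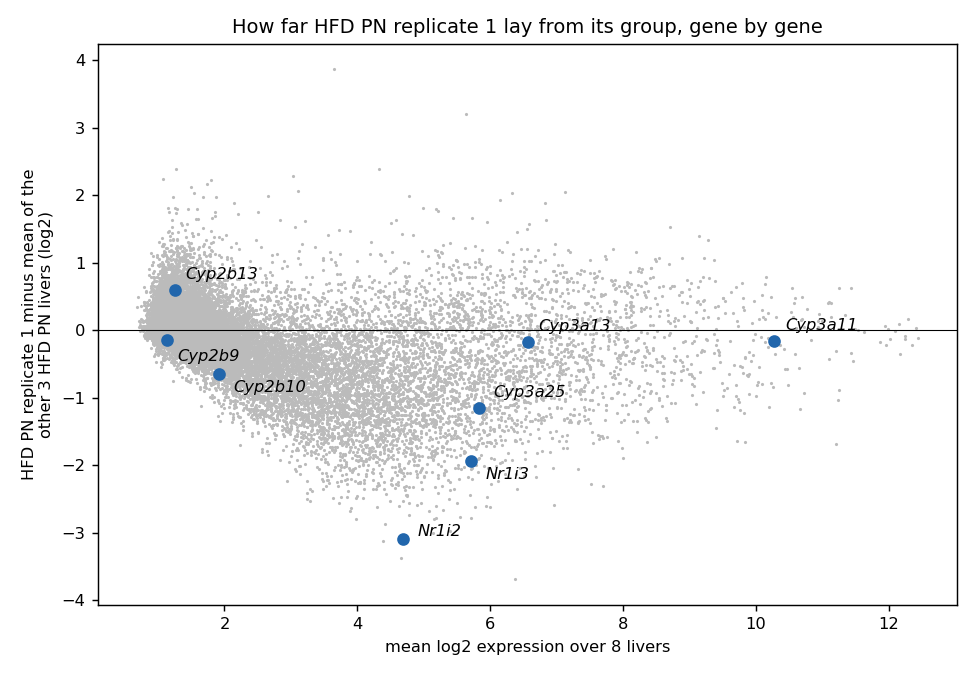
Each grey point is 1 of 22180 genes, placed by its mean log2 expression over 8 livers and by the log2 gap between HFD PN replicate 1 and the mean of the other 3 HFD PN livers, and blue points are the 8 genes described. Nr1i2 lies at -3.10 near the lower edge of the cloud, Nr1i3 at -1.94, and Cyp3a11 at -0.15.

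Cell type markers in HFD PN replicate 1 are given beside this result. Hepatocyte markers averaged 9.50 there, 9.41 in Ctrl PN replicate 3 and 9.71 to 9.84 in the 6 other livers. Pericentral hepatocyte genes, from the zone where PXR and CAR targets are mostly expressed, averaged 4.85 against 5.61 to 5.98 in the 6 other livers, and 14 of 20 were lowest in HFD PN replicate 1. Periportal hepatocyte genes, from the opposite zone, averaged 7.08 there against 7.43 to 7.79, with 5 of 16 lowest in this liver and a mean of 6.96 in Ctrl PN replicate 3. Genes of stellate cells averaged 3.82 against 4.11 to 4.57, with 9 of 12 lowest in this liver. Sinusoidal endothelial genes averaged 3.77 against 4.14 to 4.57, with 8 of 12 lowest there. Kupffer cell genes averaged 4.40, within the 4.31 to 4.95 of the 6 other livers, and 6 of 13 were lowest in HFD PN replicate 1. Lymphocyte and neutrophil genes averaged 2.23 against 1.59 to 1.71. Over the 5794 genes with a mean level of at least 3, 54.6% were lowest in HFD PN replicate 1, and the part of any of these in the Nr1i2 value was not tested. In whole liver RNA, fewer cells of a type and less RNA per cell cannot be told apart. The array of HFD PN replicate 1 also had the lowest upper quartile over all clusters, 2.34 against 2.48 to 2.63 in the other arrays. Its median was 1.602, and only Ctrl PN replicate 3 had a higher median, 1.619. In the fit that down-weighted uneven arrays, its weight was the lowest, 0.206. The part of array or RNA quality in these values was not tested.

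Nr1i3 (CAR), on chromosome 1 between 171213934 and 171218845, shared the low value of HFD PN replicate 1 but not that of Ctrl PN replicate 3. Its level in HFD PN replicates 1 to 4 was 4.26, 6.53, 5.65 and 6.43. The values were 5.63, 5.55, 5.69 and 5.96 in Ctrl PN replicates 1 to 4. The Ctrl PN livers lay close together, with HFD PN replicate 1 under all of them, HFD PN replicates 2 and 4 above all of them and HFD PN replicate 3 among them. The HFD PN mean was 5.72 ± 1.05 (SD, n = 4) and the Ctrl PN mean 5.71 ± 0.18 (SD, n = 4). The difference was 0.01, with a 95% confidence interval of -1.0 to 1.02 (exact permutation p = 0.971). Leaving out HFD PN replicate 1 gave 0.49 ± 0.21 (SE), with an unadjusted limma p of 0.0418 and an adjusted p of 0.517.

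Cyp3a11, the main drug-oxidising Cyp3a enzyme of mouse liver, lies on chromosome 5 between 145854607 and 145879854 and was bright in every liver. Its level was 10.17, 10.26, 10.55 and 10.15 in HFD PN replicates 1 to 4. In Ctrl PN replicates 1 to 4 it was 10.18, 10.21, 10.32 and 10.36. All 8 livers lay within 0.40 of each other, and HFD PN replicate 1 was not set apart although its Nr1i2 and Nr1i3 were the lowest. The difference was 0.01 with a 95% confidence interval of -0.24 to 0.27, or 0.845-fold to 1.20-fold (exact permutation p = 0.914). This was the narrowest bound among the Cyp3a members. A pair of further transcript clusters named Cyp3a11 together with Cyp3a41a, Cyp3a41b and Cyp3a44, and they lay between 8.31 and 9.02 in all livers. They cannot be given to 1 gene, so no test of them is given here.

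Cyp3a13, a Cyp3a enzyme of liver and intestine encoded apart from the main cluster on the same chromosome (137892933 to 137925610), had the smallest p of the 8 genes. Its level was 6.61, 6.71, 6.86 and 6.78 in HFD PN replicates 1 to 4. Ctrl PN replicates 1 to 4 gave 6.38, 6.37, 5.99 and 6.79. Ctrl PN replicate 4 lay among the HFD PN livers and the other 3 Ctrl PN livers below all of them. The HFD PN mean was 6.74 ± 0.10 (SD, n = 4) and the Ctrl PN mean 6.38 ± 0.33 (SD, n = 4). The difference of 0.36 had a 95% confidence interval of -0.01 to 0.72 and an unadjusted limma p of 0.0537 (exact permutation p = 0.114). Leaving out Ctrl PN replicate 4 gave 0.49, with an unadjusted limma p of 0.00621 and an adjusted p of 0.99998, and leaving out HFD PN replicate 1 gave 0.40 with an unadjusted limma p of 0.0438. Leaving out Ctrl PN replicate 3 gave 0.23 with an unadjusted limma p of 0.131, and leaving out both uneven livers gave 0.27 with an unadjusted limma p of 0.0759.

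Cyp3a25, an adult liver Cyp3a enzyme on chromosome 5 (145977192 to 146009644), varied most among the enzymes. Its level was 5.08, 5.85, 5.86 and 6.97 in HFD PN replicates 1 to 4. The values were 6.0, 5.40, 5.89 and 5.63 in Ctrl PN replicates 1 to 4. HFD PN held both the lowest liver, replicate 1, and the highest, replicate 4. The difference was 0.21 with a 95% confidence interval of -0.58 to 1.0 (exact permutation p = 0.743). It was -0.13 without HFD PN replicate 4. Leaving out HFD PN replicate 1 in its place gave 0.50.

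Of 6 further Cyp3a genes, 4 had a cluster of their own and none reached an unadjusted p under 0.01. Cyp3a59 lay between 4.42 and 5.43 in HFD PN and between 4.04 and 5.36 in Ctrl PN. Cyp3a44, known to be higher in female liver, lay between 2.42 and 3.11 in HFD PN and between 2.59 and 3.34 in Ctrl PN. Cyp3a16, a Cyp3a gene of the fetal liver, and Cyp3a57 stayed at or under 1.39 in all livers, within the background guide of 1.65. No row named Cyp3a41a or Cyp3a41b alone.

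Cyp2b10, on chromosome 7 between 25897658 and 25926624, was low in these livers. Its level was 1.41, 2.00, 2.28 and 1.89 in HFD PN replicates 1 to 4. In Ctrl PN replicates 1 to 4 it was 1.75, 2.47, 1.40 and 2.15. It passed the background guide of 1.65 in 6 of 8 livers, and those under it were HFD PN replicate 1 and Ctrl PN replicate 3, the same livers that were lowest for Nr1i2. The difference was -0.05 with a 95% confidence interval of -0.63 to 0.53, or 0.647-fold to 1.45-fold (exact permutation p = 0.914). Signals this near background compress differences, so that a change of the RNA can be larger than the interval shows.

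Cyp2b9 and Cyp2b13 were at background in these male livers. Cyp2b9 (chromosome 7, 26173350 to 26210661) lay between 1.06 and 1.39 in HFD PN and between 1.01 and 1.16 in Ctrl PN, under 1.65 in 8 of 8 livers. Cyp2b13 (chromosome 7, 26061388 to 26096197) was 1.75 in HFD PN replicate 1 and between 1.02 and 1.46 in the other 7 livers. Their differences were 0.08 ± 0.10 (SE) and 0.09 ± 0.17 (SE), with exact permutation p-values of 0.457 and 0.629. At this signal a difference in either gene was not detectable. Cyp2b23 likewise was highest in HFD PN replicate 1, at 2.60, and between 1.06 and 1.77 in the other livers. Cyp2b19, a Cyp2b gene of skin, differed by -0.13 ± 0.17 (SE).

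**Figure D3:**
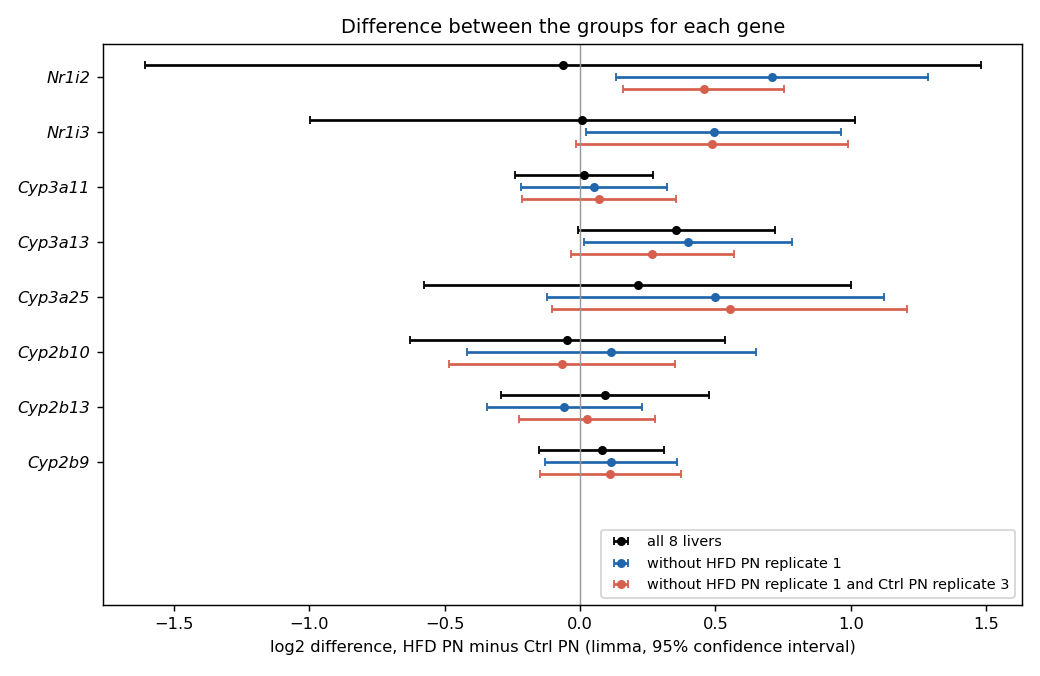
Log2 difference of HFD PN minus Ctrl PN for each gene with its 95% confidence interval from limma, for all 8 livers (black), without HFD PN replicate 1 (blue) and without this liver and Ctrl PN replicate 3 (red). All black intervals include 0, and the Nr1i2 estimate moves from -0.06 to 0.71 and 0.46.

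Receptor and target levels were set against each other over the 8 livers, in 5 pairs. Nr1i2 and Nr1i3 gave Pearson r = 0.831 (permutation p = 0.0306, adjusted over the pairs p = 0.153) and Spearman rho = 0.452 (permutation p = 0.267). Without HFD PN replicate 1 and Ctrl PN replicate 3, the livers farthest from the median, r was 0.246, so the relation rested on those livers. Nr1i2 with Cyp3a11, a receptor with its classical target, gave r = 0.287 (permutation p = 0.458) and rho = 0.119 (permutation p = 0.793), and r was 0.178 without those livers. Nr1i3 with Cyp2b10 gave r = 0.401 (permutation p = 0.342) and rho = 0.048 (permutation p = 0.935), and r was -0.144 without HFD PN replicates 1 and 2. Cyp2b10 with Cyp3a11 gave r = 0.356 (permutation p = 0.394) and rho = 0.381 (permutation p = 0.36), and r was 0.453 without the farthest livers. Cyp2b9 with Cyp2b13 gave r = -0.218 (permutation p = 0.571) and rho = -0.371 (permutation p = 0.363), and r was -0.572 without HFD PN replicate 3 and Ctrl PN replicate 2. Cyp2b9 lay under the background guide in all livers and Cyp2b13 in all but HFD PN replicate 1, so no relation of their RNA can be read from this pair. Within-group values of each pair, with the group means removed, gave r between -0.319 and 0.832.

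For 5 of the 8 genes, those with the most similar pattern over the same 8 livers were listed as a description. Nr1i2 ran closest to Daglb, Usp25 and Cyp2e1, with Pearson r of 0.998, 0.997 and 0.997 among 11170 named protein-coding genes, and rho was 1 with each. Cyp2e1, the ethanol-oxidising P450 of pericentral hepatocytes, was 10.42, 11.42, 11.47 and 11.47 in HFD PN replicates 1 to 4. Ctrl PN replicates 1 to 4 gave 11.41, 11.37, 11.00 and 11.28. The order of the livers was thus the same as for Nr1i2, over a span of 1.05 for Cyp2e1 and 3.21 for Nr1i2. Without HFD PN replicate 1 and Ctrl PN replicate 3, r was 0.987, 0.967 and 0.980. Nr1i3 ran closest to Slc7a6os (0.989), Tbc1d10a (0.975) and Ccdc15 (0.973), and Cyp3a11 to Spidr (0.957), Ffar1 (0.947) and Sft2d3 (0.913). Cyp2b10 ran closest to Hivep2 (0.965), Tsen54 (0.964) and Dus2 (0.963), and Cyp2b9 to Zbtb22 (0.978), Sclt1 (0.964) and Vpreb3 (0.963). These were the highest correlations of that search, and all share the same 8 arrays. Cyp2b9 lay under the background guide in all livers, so no pattern of its RNA can be read from its matches. The genes closest to Cyp2b9 had mean levels of 1.696 to 1.935, near that guide. Those closest to Cyp3a11 had mean levels of 1.707 to 1.908. How far such matches come from shared array noise was not tested.

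Of 26 partners and regulators of the receptors, 22 were measured and none reached an unadjusted p under 0.01 in either direction. Differences were positive for 14 and negative for 8, with a median of 0.09 beside -0.02 over all genes. Of the 22, 15 (68.2%) were lowest in HFD PN replicate 1, beside 54.6% of genes with a mean level of at least 3 and 30.2% of all genes. Rxra, the main RXR partner in liver, was 5.14, 6.65, 6.59 and 6.48 in HFD PN replicates 1 to 4. The values were 6.75, 6.74, 5.69 and 6.47 in Ctrl PN replicates 1 to 4, so that the lowest livers were again HFD PN replicate 1 and Ctrl PN replicate 3. Hnf4a, a hepatocyte factor that supports both receptors, was lowest in the same livers, at 6.96 and 7.38 against 7.49 to 8.19 in the others. Nr0b2 (SHP, a repressor of several nuclear receptors) had the highest difference, 0.53 ± 0.46 (SE), and Esrra (an estrogen-related receptor) had the lowest, -0.34 ± 0.20 (SE). Ppargc1a, a coactivator, differed by 0.29 ± 0.22 (SE) and Dnajc7, a co-chaperone that holds CAR in the cytoplasm, by 0.26 ± 0.27 (SE). When HFD PN replicate 1 was left out the coactivator Ncoa6 was higher by 0.59, with an unadjusted limma p of 0.0019 and an adjusted p of 0.381, and when HFD PN replicate 3 was left out Esrra was lower, at -0.54, with an unadjusted limma p of 0.00585 and an adjusted p of 0.998.

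Of 13 genes that supply electrons or heme to the enzymes, 11 were measured, none reached an unadjusted p under 0.01 and the median difference was 0.01. No row named Por alone. Alas1, the first and rate-limiting enzyme of heme synthesis and itself a target of CAR and PXR, had the lowest difference. Its level was 6.07, 8.38, 5.86 and 5.68 in HFD PN replicates 1 to 4. In Ctrl PN replicates 1 to 4 it was 7.64, 7.08, 6.21 and 7.60. HFD PN replicate 2 lay above all Ctrl PN livers and the other 3 HFD PN livers below all of them. The difference was -0.63 ± 0.59 (SE) with all livers (exact permutation p = 0.4). Leaving out HFD PN replicate 2 gave -1.26 ± 0.34 (SE), with an unadjusted limma p of 0.00594 and an adjusted p of 0.999. Ppox, a later enzyme of the pathway, had the highest difference, 0.32 ± 0.33 (SE), and without HFD PN replicate 1 this was 0.65 with an unadjusted limma p of 0.0093 and an adjusted p of 0.44. Alad, the next enzyme after Alas1, differed by -0.16 ± 0.18 (SE), and the heme-degrading Hmox1 by 0.14 ± 0.21 (SE).

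Over all genes, 123 of 22180 (0.555%) reached an unadjusted limma p under 0.01 in either direction. Of 54 other genes known as CAR or PXR targets, 47 were measured, and at that threshold 0 were higher and 1 was lower. Differences were positive for 18 and negative for 29, with a median of -0.03 beside -0.02 over all genes. Of the 47, 27 (57.4%) were lowest in HFD PN replicate 1. That share was 54.6% over genes with a mean level of at least 3 and 30.2% over all genes. The gene past the threshold was Cyp2c55, a P450 induced through CAR and PXR in mouse liver. Its level was 5.00, 5.39, 5.74 and 5.45 in HFD PN replicates 1 to 4. Ctrl PN replicates 1 to 4 gave 5.66, 6.03, 5.98 and 6.19. HFD PN replicate 3 lay just above Ctrl PN replicate 1, and otherwise all HFD PN livers lay below all Ctrl PN livers. The difference was -0.57 ± 0.17 (SE), with an unadjusted limma p of 0.00935 and an adjusted p of 0.99988 (exact permutation p = 0.0571). Leaving out HFD PN replicate 1 gave -0.44 with an unadjusted limma p of 0.015, and with Ctrl PN replicate 3 left out as well it was -0.43 with an unadjusted limma p of 0.0216. The unadjusted limma p was also above 0.01 without HFD PN replicate 2 or 4 or without Ctrl PN replicate 2, 3 or 4, while the difference stayed between -0.59 and -0.50.

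The remaining targets named by the rule did not pass the threshold. Gstm2, a glutathione transferase, differed by 0.29 ± 0.14 (SE), and without HFD PN replicate 1 it was higher by 0.41 with an unadjusted limma p of 0.00871. Abcb1b, a drug efflux pump, lay between 1.02 and 1.51 in all livers, within the background guide. Ugt2b35, a glucuronosyltransferase, differed by -0.26 ± 0.17 (SE). Scd1, a fatty acid desaturase and a lipid gene that the receptors are known to affect, had the highest difference of the list, 0.41 ± 0.34 (SE).

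**Figure D4:**
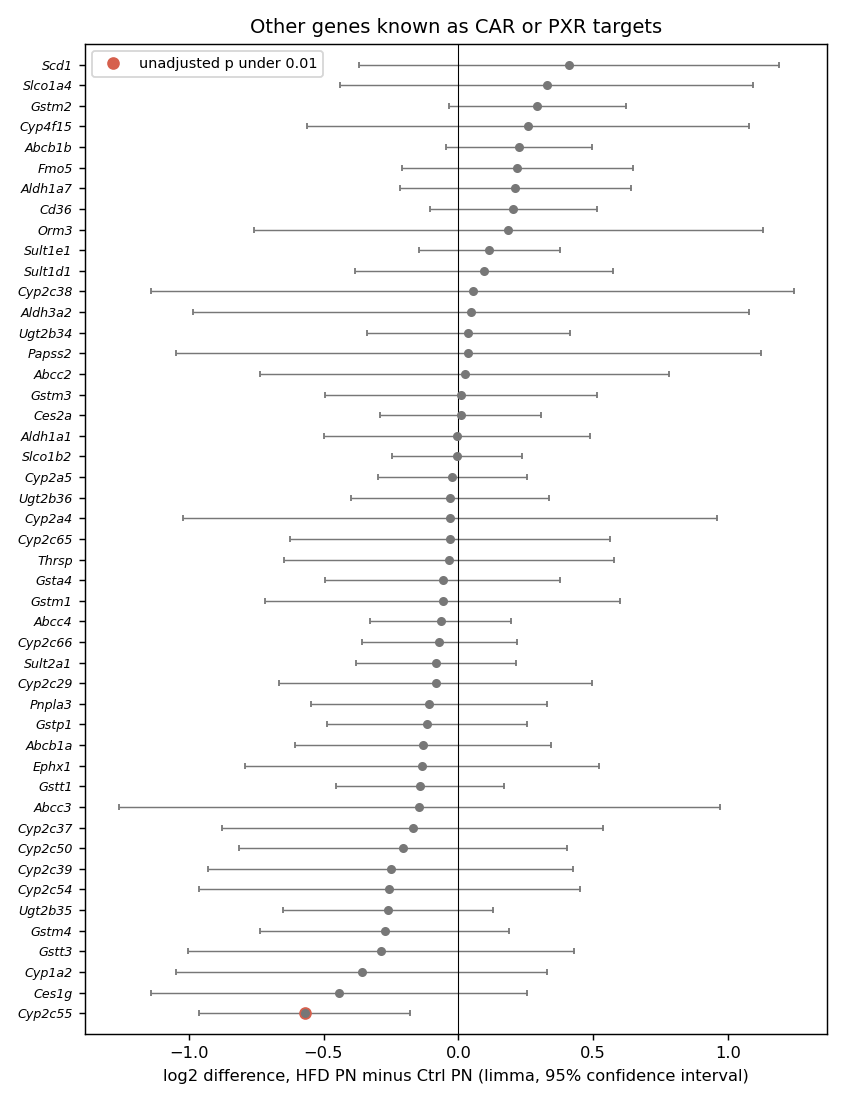
Log2 difference of HFD PN minus Ctrl PN with its 95% confidence interval from limma for each of the 47 measured genes known as other CAR or PXR targets, sorted by size. The red point is Cyp2c55 at -0.57, the 1 gene at an unadjusted p under 0.01, and the others lie on both sides of 0 with intervals that include it.

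Genes known to be higher in female or in male liver were read as well, since several Cyp2b and Cyp3a genes belong to the first kind. Of 24 female-predominant genes 20 were measured, and 0 were higher and 0 lower at an unadjusted p under 0.01, with a median difference of 0.01. Of 21 male-predominant genes 21 were measured, and again 0 were higher and 0 lower, with a median of -0.09. Of the 20, 11 lay above the background guide, and so did all 21 of the male-predominant list. Differences were positive for 11 and negative for 9 in the female-predominant list. They ran from -0.18 ± 0.11 (SE) for Cyp2c69 to 1.35 ± 0.71 (SE) for Cyp4a14, a fatty acid hydroxylase. In the male-predominant list 7 were positive and 14 negative, from -0.52 ± 0.37 (SE) for Susd4 to 0.90 ± 0.59 (SE) for Bcl6. Hsd3b5 of that list, a male-specific steroid dehydrogenase, differed by -0.37 ± 0.17 (SE).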

How the data were processed

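Liver RNA of 4 HFD PN and 4 Ctrl PN male offspring was measured on Affymetrix Mouse Gene arrays. Per the methods and labels, the authors used RMA (oligo package, R 3.4.3) to fit the deposited log2 values, 1 per transcript cluster and liver. RMA corrects background and equalises probe distributions, which compresses differences near background. No source used here gives the genome build behind the probe sets. Coordinates and promoters are those of RefSeq GRCm38.p6.

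Of 41345 clusters, 23521 named 1 gene in the platform annotation, and 23328 of these were matched by gene identifier. They gave 22180 genes, with the cluster of highest mean kept for the 1082 genes that had several. The 8 genes had 1 cluster each. HFD PN was compared with Ctrl PN in limma 3.58.1 under R 4.3.3 (lmFit and eBayes, no covariates) over all 22180 genes, with the study's exploratory unadjusted p threshold of 0.01 and a Benjamini-Hochberg adjusted p under 0.05. For single genes an exact two-sided permutation test ran over all 70 splits of the livers, and its smallest possible p is 0.0286. Arrays have no read depth, and their number limits the precision. The procedure was tested on simulated arrays.

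The members and gene lists were chosen with earlier results of these data known. Besides the 8 genes, the text names the other measured Cyp3a and Cyp2b genes, Rxra, Rxrb, Hnf4a and Alas1, and of each list described up to 4 genes with the smallest p and those with the highest and lowest difference. It also names the 3 genes most correlated with each of 5 members. Ncoa6 was named after its values were seen. Of the 2 lists by sex, examples are given. Alternatives covered scaling, a filter on dim genes, variance model, array weights, the replicate block, each liver left out, both uneven livers left out, the methods' t-test and all clusters. The gene set analysis of the study was not repeated.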

Additional observations from a re-analysis of the deposited data

Results flagged for a closer look

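In each group of 4 livers, the gap of the highest or lowest liver to its neighbour was set against the whole range of the group, for 18 genes and 36 groups. Chance flags about 1 in 20 groups, and 4 were flagged. Nr1i2 in HFD PN replicate 1 was 2.33, and the other 3 HFD PN livers lay between 5.27 and 5.54. Rxra in the same liver was 5.14, and the others lay between 6.48 and 6.65. Alas1 in HFD PN replicate 2 was 8.38, and the others lay between 5.68 and 6.07. Rxrb, another RXR partner, was 2.93 in Ctrl PN replicate 2 and between 2.48 and 2.56 in the other Ctrl PN livers.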

How the results depend on the processing

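The differences of the 8 genes were recomputed in 150 combinations of gene and setting. The direction and the side of the 0.01 threshold held in 132, the direction turned in 17, and Cyp3a13 passed the threshold in its own direction without Ctrl PN replicate 4. Among the 17, Nr1i2 without both uneven livers, also passed it. Turns came when livers were left out, except that array weights moved Nr1i2 to 0.45. With each liver left out in turn, differences ranged from -0.08 to 0.06 for Cyp3a11, from 0.23 to 0.49 for Cyp3a13, from -0.13 to 0.50 for Cyp3a25, from -0.23 to 0.13 for Cyp2b10, from -0.06 to 0.17 for Cyp2b13, from 0.01 to 0.12 for Cyp2b9, from -0.36 to 0.71 for Nr1i2 and from -0.26 to 0.49 for Nr1i3. Without HFD PN replicate 1 and Ctrl PN replicate 3 together, Nr1i2 was 0.46, Cyp3a11 was 0.07, Cyp3a25 was 0.55, r of Nr1i3 with Cyp2b10 was -0.434 and r of Cyp2b9 with Cyp2b13 was 0.177. The cause was not tested. The filter on dim genes removed Cyp2b9 and Cyp2b13, so it gave no value for them.

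Of all genes, 43 were higher and 80 lower at an unadjusted p under 0.01. The counts were 109 and 167 over all clusters, 241 and 185 with array weights, 375 and 121 without both uneven livers, and 18 and 21 without dim genes, where fewer genes were tested. Trended and robust variance gave 21 higher, and median centring 48 lower. The methods' t-test gave 51 higher and 144 lower, with 1 gene after Benjamini-Hochberg adjustment, and its form for unequal variances gave 28 and 100, with 0. Leaving out 1 liver gave 14 to 393 higher, the fewest without HFD PN replicate 4 and the most without HFD PN replicate 1. It gave 36 to 99 lower, the fewest without HFD PN replicate 4. Without HFD PN replicate 2 the count was 52 lower and without HFD PN replicate 3 it was 51 lower, and without Ctrl PN replicate 1 or 3 it was 21 or 18 higher.

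For the other CAR or PXR targets the count at this threshold was 1, and it was 0 with median centring, 0 without both uneven livers and 0 to 1 with each liver left out. Without HFD PN replicate 1 the 1 gene past it was Gstm2. For the receptor partners it was 0, then 1 without both uneven livers (Ncoa6) and 0 to 1 with each liver left out. For electron transfer and heme it was 0, and 0 to 1 with each liver left out.

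No source used here says that the replicate numbers of the labels pair the livers, and the following values cannot show whether same-numbered livers shared a batch or litter. Deviations of same-numbered livers from their group means correlated at -0.303, 0.291, -0.407 and 0.161 for numbers 1 to 4. The replicate block gave 32 genes higher and 41 lower. By construction it leaves each difference as it was, and it changed the unadjusted limma p of Cyp3a13 from 0.0537 to 0.0768.

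Signals near background limit what Cyp2b9, Cyp2b13 and in part Cyp2b10 can show. With 4 livers per group, the interval of Nr1i2 spanned differences from -1.61 to 1.48.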
